A study of Aspergillus fumigatus with 4 samples.

Results

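The 30 genes described here belong, by the descriptions in the study's table of varying genes, to 3 functions of the fungal mitochondrion and peroxisome: 12 genes around the tricarboxylic acid (TCA) cycle, 7 genes of the respiratory chain and 11 genes of fatty acid beta-oxidation and the peroxisome. They are 30 of the 9540 genes in the deposited table, and all 30 were found in it. The genes had been listed because their levels varied between the same 4 libraries, so the differences below describe these genes and were not tested. The members were thus chosen by RPM values from all 4 libraries, through the study's criterion that the coefficient of variation reach 0.6, and they ran from 0.607 (cytochrome c oxidase subunit Va) to 1.26 (copper amine oxidase). Of the genes set beside them, the cytochrome c oxidase assembly gene Cox11 (Y699_02637) lay just inside the criterion at 0.608 and a cytochrome c heme lyase (Y699_03430), taken from another list of the study, lay outside it at 0.473.

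The TCA cycle oxidises acetyl-CoA in the mitochondrion and hands electrons to the respiratory chain, where cytochrome c oxidase passes them to oxygen and ATP synthase uses the resulting proton gradient. Beta-oxidation shortens fatty acids to acetyl-CoA, in filamentous fungi in both peroxisomes and mitochondria. Fungi that live on carbon sources entering metabolism as acetyl-CoA also need the glyoxylate shortcut of the cycle and gluconeogenesis.

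The label of the first group was wider than the cycle itself. By their descriptions 5 of the 12 genes encode cycle enzymes, namely citrate synthase Cit1, a further citrate synthase, aconitase, the succinyl-CoA synthetase beta subunit and malate dehydrogenase. Another 3 encode enzymes of lysine or leucine synthesis that work on acids resembling those of the cycle, 2 encode succinyl-CoA:3-ketoacid CoA transferases, and 2 encode malic enzymes. Of the 7 respiratory genes, 5 encode subunits of cytochrome c oxidase, 1 a complex I subunit and 1 the ATP synthase subunit ATP9. The last group held 8 genes described as beta-oxidation enzymes or dehydratases and 3 other peroxisomal proteins, among them a copper amine oxidase that acts on amines and not on fatty acids.

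*Aspergillus fumigatus* Z5 is a filamentous fungus from compost heaps that degrades plant biomass. Conidia were grown with sucrose at 45 °C and 145 rpm, for 20 h by the labels, although the study's methods give another duration, and the mycelium was either the sucrose control or was washed and moved for 16 h to a medium without yeast extract that held oat spelt xylan, Avicel (a microcrystalline cellulose) or rice straw (below, straw). No carbon source was replicated, each giving 1 library, and since these durations differ the age of the sucrose control at harvest is uncertain. A difference from sucrose therefore joins carbon source, transfer, medium and possibly culture age, which cannot be told apart, while the 3 transferred cultures share their handling.

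The libraries held 6820702 to 7553138 reads over the 9540 genes, so 1 read stood for 0.132 to 0.147 RPM (reads scaled to a common library size). RPM was used to compare a gene between libraries, and RPM per kilobase of coding sequence (RPKM) to compare genes. Intervals of ratios are exact 95% intervals for counting error that treat each read as an independent draw. Since the reads were PCR copies with no molecular identifiers, the intervals may be too narrow even for counting error. They say nothing of variation between cultures. A gene was counted as higher or lower when its RPM differed at least 4-fold and reached 10 RPM in either library. A lower level in mycelial RNA can mean fewer cells of a kind or less RNA in each, and these cannot be told apart. The cellulose library stood apart in genes of asexual spores: all 7 conidiation markers were highest there, and their summed level was 26.1 RPM in sucrose, 65.1 in xylan, 2920.04 in cellulose and 71.2 in straw. The conidial hydrophobins RodA and RodB reached 512 and 2072 RPM in cellulose against 0.571 and 4.85 RPM in sucrose, and the cellulose values below go together with these marker levels, whose part was not tested.

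The 3 groups of listed genes took different courses, which need not hold for the other genes of each function. By the sign of the ratio to sucrose alone, 10 of the 12 genes around the TCA cycle were above 1 in cellulose and in straw, 6 of the 7 respiratory genes were below 1 in both, and 8 of the 11 beta-oxidation and peroxisome genes were above 1 in both. The 12 genes around the cycle summed to 4424 RPM in sucrose, 3564 in xylan, 11698 in cellulose and 14534 in straw. The 7 respiratory genes summed to 6333, 3623, 865 and 1089.9 RPM in the same order. The 11 beta-oxidation and peroxisome genes summed to 557, 495, 1083 and 687 RPM. Sucrose gave the respiratory genes a larger share of reads than the genes around the cycle, and cellulose and straw the reverse.

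**Figure D1:**
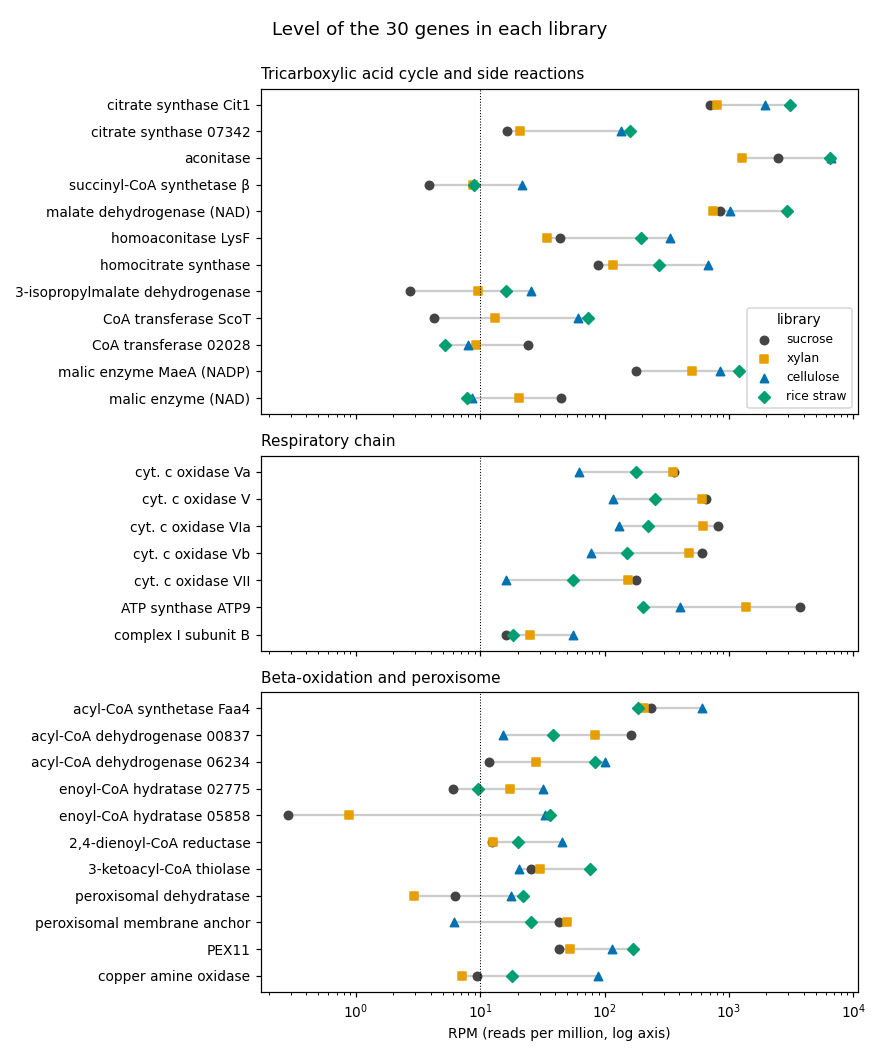
Level of each of the 30 genes in RPM (log axis) in the sucrose, xylan, cellulose and straw libraries, 1 point per library and no error bar because there was 1 library each; the dotted line marks 10 RPM. The 5 cytochrome c oxidase subunits run from sucrose at the right to cellulose at the left, while both citrate synthases lie lowest in sucrose and highest in straw.

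Between xylan and sucrose no member differed by 4-fold. Over all genes tested 4.48% were higher and 2.22% lower in xylan by the same rule, and the members that reached 10 RPM in either library were 10 of 12, 7 of 7 and 8 of 11 in the 3 groups. In cellulose 7 of the 12 genes around the cycle were higher and 1 was lower, none of the 7 respiratory genes was higher and 6 were lower, and 4 of the 11 beta-oxidation and peroxisome genes were higher and 2 lower. The background in cellulose was 14.3% of all genes tested higher and 9.54% lower. In straw 6 genes around the cycle were higher and 2 lower, 1 respiratory gene was lower, and 2 beta-oxidation genes were higher and 1 lower, beside 10.3% higher and 9.65% lower over all genes tested. Because the members were chosen for varying over these libraries, nothing is read from these counts against the background. Of the 30 members 8 passed 4-fold in no substrate, 12 in 1 and 10 in 2.

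The median log2 ratio to sucrose, relative to that of all genes with 10 RPM in either library, came to 0.50, 2.30 and 2.32 in xylan, cellulose and straw for the genes around the cycle. For the respiratory genes it was 0.05, -2.71 and -1.31, and for the beta-oxidation and peroxisome genes 0.46, 1.43 and 1.27. The all-gene median itself stood at -0.24, 0.06 and -0.35 in the same libraries. Scaling by edgeR's TMM factors added 0.19 to every log2 ratio in xylan, -0.08 in cellulose and 0.30 in straw. A shift shared by all genes cancels in the relative medians, so no scaling can change them.

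**Figure D2:**
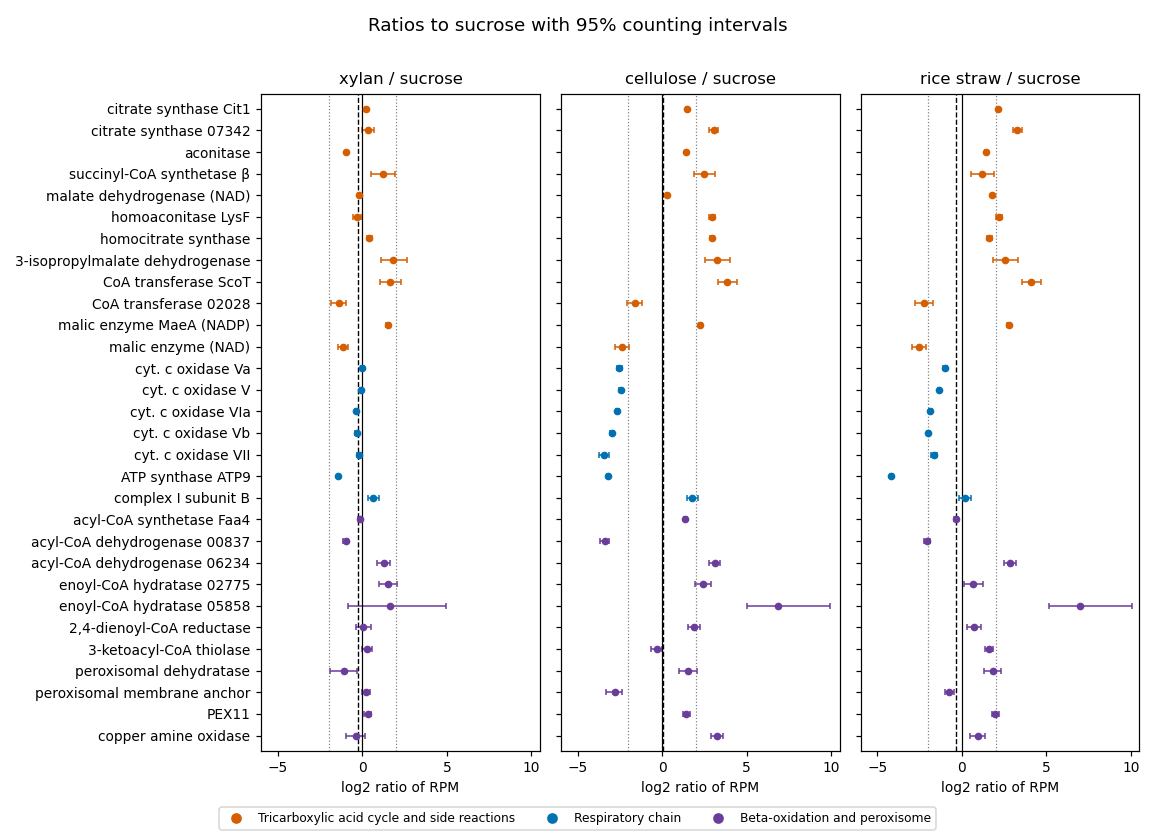
Log2 ratio of each member's RPM to sucrose in xylan, cellulose and straw, with bars for exact 95% counting intervals; the dashed line is the median of all genes, the dotted lines are 4-fold, and colour marks the function. In cellulose 6 of the 7 respiratory genes lie beyond the lower dotted line, and the widest interval belongs to enoyl-CoA hydratase Y699_05858 with 2 reads in sucrose.

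Among the cycle enzymes, aconitase (Y699_04417, *acoA*), which converts citrate to isocitrate, was the most abundant by RPM in every library. It had 17346 reads in sucrose, 8722 in xylan, 46252 in cellulose and 49505 in straw, or 2476, 1279, 6592 and 6554 RPM. Cellulose and straw stood together at the top and xylan was lowest, with a level in xylan 1.94-fold below sucrose (95% interval 1.89 to 1.99). Its ratio to sucrose was 2.66 in cellulose and 2.65 in straw, below the 4-fold limit in both. Aconitase held 56.0% of the RPM of the 12 genes in sucrose, 35.9% in xylan, 56.3% in cellulose and 45.1% in straw, so the sum of that group leaned on this gene.

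Citrate synthase Cit1 (Y699_00380), which joins acetyl-CoA to oxaloacetate and so opens the cycle, had 4902 reads in sucrose, 5464 in xylan, 13721 in cellulose and 23340 in straw. Its RPM was 699.7, 801, 1956 and 3090.1. Straw was highest, and sucrose and xylan were close together at the bottom. Straw exceeded sucrose 4.42-fold (4.28 to 4.56), just past the limit, and cellulose exceeded it 2.79-fold (2.70 to 2.89). NAD-dependent malate dehydrogenase (Y699_08597), which regenerates oxaloacetate, was separated from the other libraries in straw alone: 842 RPM in sucrose, 742 in xylan, 1020.3 in cellulose and 2940.4 in straw. Its straw ratio was 3.49 (3.39 to 3.60).

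The further citrate synthase gene, Y699_07342, is named Cit1 in the study's description, whereas RefSeq gives its Af293 counterpart the symbol *mcsA*, used in *Aspergillus* for methylcitrate synthase, the enzyme that joins propionyl-CoA to oxaloacetate. It had 116 reads in sucrose, 142 in xylan, 956 in cellulose and 1219 in straw. The sucrose and xylan levels lay within counting error of each other (1.26-fold, 0.977 to 1.62), and cellulose and straw exceeded sucrose 8.23-fold (6.78 to 10.1) and 9.75-fold (8.05 to 11.9). Per kilobase it lay far below Cit1, whose RPKM was 41.5 times as high in sucrose, 37.8 times in xylan, 14.1 times in cellulose and 18.8 times in straw. The succinyl-CoA synthetase beta subunit gene Y699_03769 was the least abundant of the 5 at 3.85, 8.80, 21.7 and 8.87 RPM. It reached 10 RPM in cellulose only, where it was 5.62-fold above sucrose (3.72 to 8.81).

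The 3 members from lysine and leucine synthesis were highest in cellulose, and each was lower in straw than in cellulose. Homocitrate synthase (Y699_06421, *hcsA*), the entry to fungal lysine synthesis, had 89.1 RPM in sucrose, 117 in xylan, 685 in cellulose and 274 in straw. Homoaconitase LysF (Y699_00730), which acts after it in the same pathway, had 43.7, 34.7, 333 and 196 RPM. 3-Isopropylmalate dehydrogenase (Y699_04479) of leucine synthesis had 2.71, 9.68, 25.5 and 16.02 RPM, resting on 19 reads in sucrose. Homocitrate synthase, homoaconitase and 3-isopropylmalate dehydrogenase were 7.69-fold, 7.63-fold and 9.41-fold above sucrose in cellulose. In straw the same ratios were 3.07, 4.50 and 5.91.

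Homoaconitase lies 2 to 5 locus tags from 3 genes of leucine degradation, and these were likewise highest in cellulose and next in straw. The 3-methylcrotonyl-CoA carboxylase alpha subunit (Y699_00732) had 11.4 RPM in sucrose, 21.8 in xylan, 87.4 in cellulose and 59.98 in straw. Isovaleryl-CoA dehydrogenase IvdA (Y699_00734) had 3.43, 8.80, 52.7 and 23.7 RPM, and the carboxylase beta subunit (Y699_00735) had 7.99, 7.48, 81.1 and 26.1 RPM. Each was higher in cellulose than in straw and higher in straw than in sucrose. The leucine synthesis gene for 2-isopropylmalate synthase (Y699_09124) had 73.1, 45.7, 223 and 101 RPM. Of this list of 4, 3 were higher than sucrose in cellulose and 2 in straw, with none lower.

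In both the malic enzymes and the CoA transferases, 1 gene was higher on the polysaccharides and its partner lower. NADP-dependent malic enzyme MaeA (Y699_02975), which makes pyruvate and NADPH from malate, had 178 RPM in sucrose, 508 in xylan, 852 in cellulose and 1206 in straw. The NAD-dependent malic enzyme gene Y699_08939 had 44.7, 20.5, 8.55 and 7.81 RPM. All 3 polysaccharide libraries lay above sucrose for MaeA and below it for the NAD enzyme. MaeA exceeded sucrose 2.86-fold in xylan, then 4.80-fold (4.51 to 5.10) in cellulose and 6.79-fold (6.40 to 7.21) in straw. The NAD enzyme was lower by 2.18-fold, 5.22-fold (3.95 to 7.01) and 5.72-fold (4.32 to 7.69). The RPKM of MaeA thus went from 3.77 times that of the NAD enzyme in sucrose to 23.4 times in xylan, 94.4 times in cellulose and 146 times in straw.

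The CoA transferases, which activate acetoacetate with the CoA of succinyl-CoA, swapped their order. ScoT (Y699_04356) had 30 reads in sucrose, 90 in xylan, 429 in cellulose and 555 in straw, and Y699_02028 had 171, 63, 56 and 39 reads. Per kilobase Y699_02028 was 5.37 times as abundant as ScoT in sucrose, and ScoT was 1.52 times, 8.13 times and 15.1 times as abundant as Y699_02028 in xylan, cellulose and straw. ScoT exceeded sucrose 14.3-fold in cellulose (9.86 to 21.4) and 17.2-fold in straw (11.9 to 25.7). Y699_02028 was 4.73-fold below sucrose in straw (3.32 to 6.88), a ratio that was under 4-fold with TMM factors, and 3.06-fold below it in cellulose. Reads of like genes can be split or shared in counting, and how the counting treated reads matching several genes is not given in the sources used here.

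**Figure D3:**
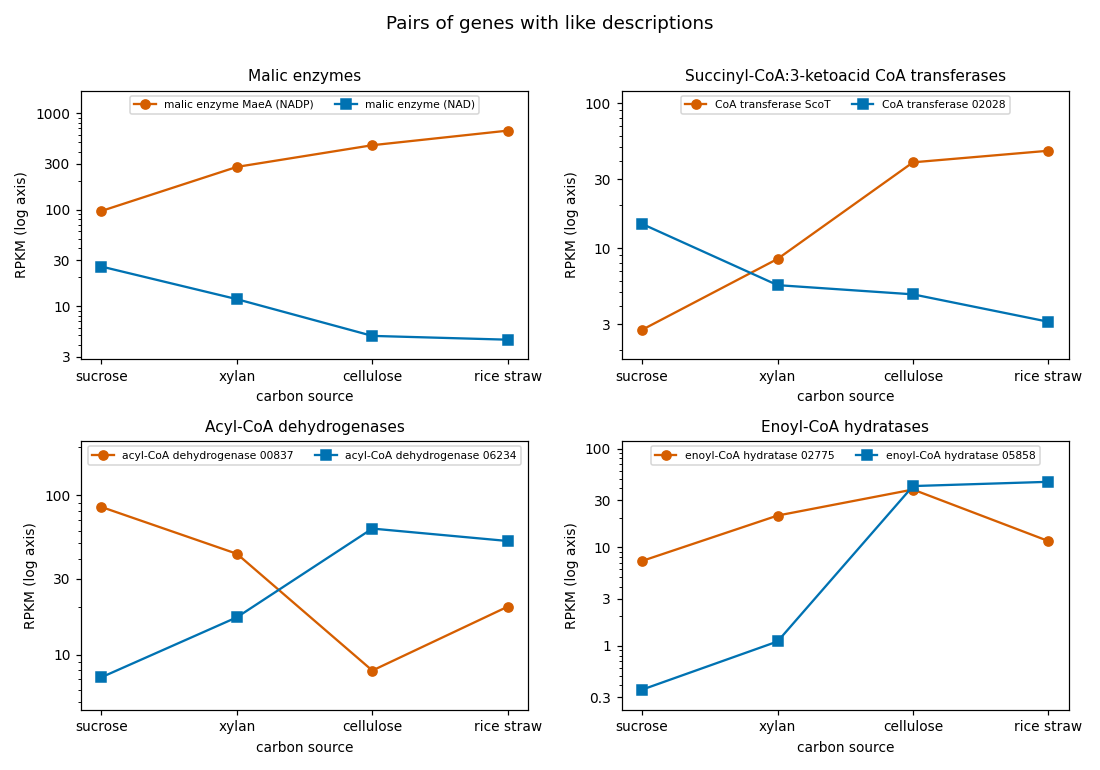
RPKM (log axis) of 4 pairs of members with like descriptions in the 4 libraries, 1 point per library, with lines joining the points of a gene. The malic enzymes move apart from 3.77 times in sucrose to 146 times in straw. In the CoA transferases and acyl-CoA dehydrogenases the more abundant gene in sucrose is the less abundant one in cellulose and straw. The enoyl-CoA hydratases swap in straw and are nearly level in cellulose (1.08 times).

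Several genes that run the glyoxylate shortcut of the cycle or gluconeogenesis were more abundant in cellulose and straw than in sucrose. Phosphoenolpyruvate carboxykinase AcuF (Y699_03930), the first committed enzyme of gluconeogenesis, had 1071 RPM in sucrose, 2526 in xylan, 14896 in cellulose and 16476 in straw. Malate synthase AcuE (Y699_07347) of the glyoxylate shortcut had 283, 1342, 1824 and 8651 RPM, and isocitrate lyase AcuD (Y699_09164), the shortcut's first enzyme, had 13.7, 77.4, 660.4 and 652 RPM. AcuD in cellulose and straw was level, whereas AcuE was highest in straw alone. AcuE and AcuD were past 4-fold already in xylan (4.75-fold and 5.65-fold), where no member was. Acetyl-CoA synthetase FacA (Y699_06473) had 207, 156, 591 and 288 RPM. Of these 6 glyoxylate and acetate genes 2, 3 and 3 were higher than sucrose in xylan, cellulose and straw, and 1, 1 and 0 lower. The lower gene was Y699_05530, described as acetyl-CoA hydrolase Ach1 and named after its values were seen, with 583, 124, 104 and 194 RPM. RefSeq gives its Af293 counterpart another symbol, *coaT*, so its function is uncertain here.

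Of 5 genes for pyruvate entry and for replenishing or exchanging acids of the cycle, none passed in xylan, 3 were higher and 1 lower in cellulose, and 4 were higher in straw. Pyruvate carboxylase (Y699_06158), which makes oxaloacetate, had 320.4 RPM in sucrose, 222 in xylan, 969 in cellulose and 2181 in straw. A mitochondrial dicarboxylate carrier (Y699_03929), next to AcuF in locus order, had 11.99, 14.95, 152 and 354 RPM. The carrier Y699_02571 was 6.92-fold and the succinate:fumarate antiporter Acr1 (Y699_02183) 4.36-fold above sucrose in cellulose, with 6.18-fold and 4.10-fold in straw. The lower gene, named after its values were seen, was the pyruvate dehydrogenase E1 alpha subunit gene Y699_03262, with 151 reads in sucrose, 120 in xylan, 12 in cellulose and 79 in straw. In these further lists all genes but the heme lyase Y699_03430 reached the variation criterion of 0.6 over the same libraries. Their values are thus a description as well, and nothing is read from their counts against the shares over all genes.

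The 5 cytochrome c oxidase subunits were highest in sucrose and xylan, lower in straw and lowest in cellulose. Their sum was 2611 RPM in sucrose, 2216 in xylan, 404 in cellulose and 867 in straw. Subunit VIa (Y699_01926), the most abundant of them per kilobase in each library, had 819 RPM in sucrose, 625 in xylan, 131 in cellulose and 224 in straw. Subunit Vb (Y699_03090) had 605, 474, 77.5 and 153 RPM, and subunit V (Y699_00887) had 649.9, 604, 118 and 255. Subunit Va (Y699_00239) had 359, 357, 62.0 and 179 RPM, and subunit VII (Y699_09411), the least abundant of the 5 by RPM, had 178, 156, 16.2 and 56.3. For subunit VII this rested on 1248, 1063, 114 and 425 reads.

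In cellulose the subunits were lower than in sucrose by 5.52-fold (subunit V, 5.13 to 5.95) to 11.0-fold (subunit VII, 9.05 to 13.4). In straw they were lower by 2.01-fold (subunit Va, 1.88 to 2.15) to 3.95-fold (subunit Vb, 3.70 to 4.22), so none was counted and Vb lay just outside the limit. In xylan they were within 1.31-fold of sucrose and below it, although Va, V and VII lay above it with TMM or DESeq2 factors, and Va also with totals that leave out the most abundant 1% of genes. Of the summed RPKM of the 5 subunits, VIa took 33.5% in sucrose, 30.2% in xylan, 36.0% in cellulose and 28.0% in straw. Subunit Va had its highest share in straw, 19.3% against 12.6% in sucrose, and subunit VII its lowest in cellulose, 9.73% against 15.8% in sucrose.

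ATP9 (Y699_06321), a subunit of the ring that turns in ATP synthase, was the respiratory gene with the largest difference. It had 25964 reads in sucrose, 9427 in xylan, 2841 in cellulose and 1544 in straw, or 3706, 1382, 405 and 204 RPM. Unlike the oxidase subunits it was lowest in straw, and it was already 2.68-fold below sucrose in xylan (2.62 to 2.75). The ratio was 9.15-fold lower in cellulose (8.81 to 9.52) and 18.1-fold lower in straw (17.2 to 19.1). By RPKM it ranked 9 among the 9540 genes in sucrose, 35 in xylan, 116 in cellulose and 332 in straw. Set against the summed RPKM of the 5 oxidase subunits, a comparison within a library that no scaling changes, ATP9 stood at 1.30 times in sucrose, 0.576 in xylan, 0.961 in cellulose and 0.220 in straw.

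The complex I gene Y699_07159, described as NADH-ubiquinone oxidoreductase subunit B, went the other way. It had 113 reads in sucrose, 173 in xylan, 389 in cellulose and 139 in straw, and thus its top level in cellulose, 3.44-fold above sucrose (2.78 to 4.28) and short of the limit. Straw and sucrose lay within counting error (1.14-fold, 0.884 to 1.48). Per kilobase this gene was the least abundant of the 7 in every library, at 23.8 RPKM in sucrose against 753 for subunit Va. Without the cellulose library 18 of the 30 members still reached the variation criterion of 0.6, and these were 11 of the 12 genes around the cycle, 6 of the 11 beta-oxidation and peroxisome genes and 1 of the 7 respiratory genes, ATP9.

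**Figure D4:**
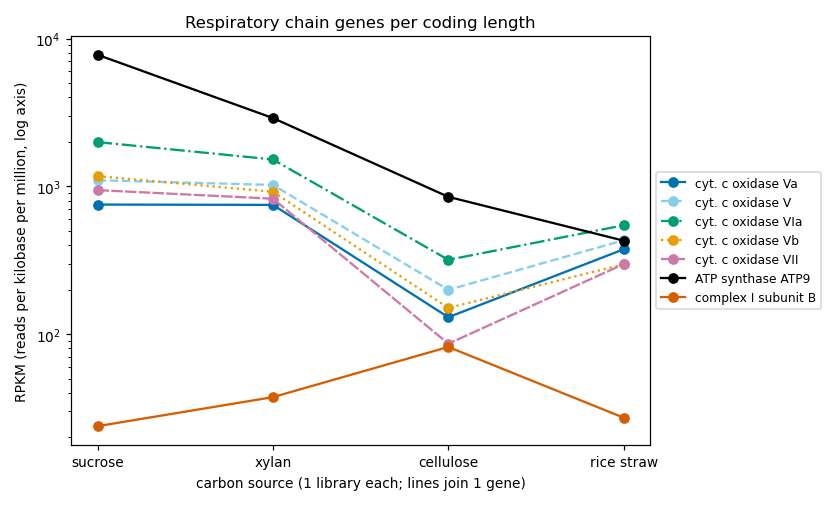
RPKM (log axis) of the 7 respiratory chain genes in the 4 libraries, 1 point per library. The 5 cytochrome c oxidase subunits dip together in cellulose and lie between in straw, ATP9 goes down to 429 RPKM in straw, and the complex I subunit peaks in cellulose at 81.8 RPKM.

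By the sign of the ratio, most listed genes that assemble the respiratory complexes or carry electrons beside them were also below sucrose. Of 14 such genes 1 was lower than sucrose in xylan, 9 in cellulose and 6 in straw, and 1 was higher, in straw. Over all genes tested, 2.22%, 9.54% and 9.65% were lower in these libraries, and 10.3% were higher in straw. The 14 genes summed to 2894 RPM in sucrose, 2433 in xylan, 1390 in cellulose and 2517 in straw. The ubiquinone synthesis gene Coq6 (Y699_04855), for the carrier that takes electrons from complex I, had 5461 reads in sucrose, 5627 in xylan, 425 in cellulose and 909 in straw. The 4 ubiquinone genes of the list, Coq6 among them, were grouped after their values were seen and were 9.95-fold to 12.9-fold lower in cellulose and 4.72-fold to 6.82-fold lower in straw. A cytochrome c subunit gene (Y699_06087) had 389, 238, 58.3 and 133 RPM and was lowest in cellulose, as the oxidase subunits were. By the sign of the ratio alone, 4 of the 14 genes lay above sucrose in cellulose and 4 in straw. The gene counted as higher in straw was an alternative NADH dehydrogenase (Y699_08079), an enzyme type that passes electrons to ubiquinone without pumping protons. It had 1229 reads in sucrose, 1097 in xylan, 4673 in cellulose and 8412 in straw. It was 3.80-fold above sucrose in cellulose and 6.35-fold in straw (5.98 to 6.75). Cytochrome c peroxidase Ccp1 (Y699_06296) had 133, 158, 153 and 476 RPM.

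Beta-oxidation genes did not all differ from sucrose in one direction. The long-chain acyl-CoA synthetase Faa4 (Y699_02837), which activates fatty acids, was the most abundant of the 8 by RPM in every library. It had 1650 reads in sucrose, 1428 in xylan, 4269 in cellulose and 1404 in straw. Cellulose stood alone above the others at 2.58-fold over sucrose (2.44 to 2.74), and Faa4 made up 42.3% of the RPM of the 11 genes in sucrose and in xylan and 56.2% in cellulose. Most of the difference between the group's sums of 557 RPM in sucrose and 1083 RPM in cellulose thus lay in this gene, which did not reach 4-fold.

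Acyl-CoA dehydrogenases take the first oxidation step, and the members of this kind crossed. Y699_00837 had 1148 reads in sucrose, 568 in xylan, 108 in cellulose and 293 in straw. Y699_06234 had 82, 190, 705 and 634. Y699_00837 was 10.6-fold lower than sucrose in cellulose (8.73 to 13.1) and 4.22-fold in straw (3.71 to 4.82), the latter just inside the limit and under 4-fold by all 3 other scalings. Y699_06234 was 8.58-fold higher in cellulose (6.82 to 10.9) and 7.17-fold in straw (5.69 to 9.14). Per kilobase Y699_00837 was 11.7 times as abundant as Y699_06234 in sucrose and 2.50 times in xylan, and Y699_06234 was 7.79 times and 2.58 times as abundant as Y699_00837 in cellulose and straw.

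Enoyl-CoA hydratases add water in the next step. Y699_05858 had the largest ratio of the 30 members and the fewest reads in sucrose, with 2 in sucrose, 6 in xylan, 233 in cellulose and 277 in straw. Sucrose and xylan were near the limit of detection at 0.285 and 0.880 RPM. The ratio to sucrose was 116 in cellulose (31.8 to 966) and 128 in straw (35.2 to 1066), and 3.08 in xylan with an interval from 0.551 to 31.2 that includes 1. The other hydratase, Y699_02775, had 42, 118, 223 and 72 reads and was highest in cellulose, 5.30-fold over sucrose (3.80 to 7.56). Its straw level was 1.59-fold that of sucrose (1.07 to 2.39), so Y699_05858 became the more abundant hydratase per kilobase in straw by 3.99 times, after 20.2 times less in sucrose. In cellulose these hydratases were nearly level per kilobase (1.08 times).

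The remaining enzymes of this group did not pass 4-fold against sucrose. The 2,4-dienoyl-CoA reductase gene Y699_00598, needed for unsaturated fatty acids, had 87 reads in sucrose, 87 in xylan, 319 in cellulose and 153 in straw, with a cellulose ratio of 3.66 (2.88 to 4.70) just outside the limit. Peroxisomal 3-ketoacyl-CoA thiolase (Y699_06463), which releases acetyl-CoA in the last step, had 179, 208, 143 and 579 reads and was highest in straw (95% interval of the ratio to sucrose 2.53 to 3.57) and lowest in cellulose. The thiolase thus had its lowest library where Faa4, the reductase and Y699_02775 had their highest. Its cellulose level was 1.25-fold below sucrose (1.001 to 1.57), so cellulose and sucrose were close for this gene. A peroxisomal dehydratase gene (Y699_00039) had 44, 20, 125 and 167 reads and was 2.14-fold lower than sucrose in xylan (1.24 to 3.84), 2.84-fold higher in cellulose and 3.52-fold higher in straw.

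The 3 other peroxisomal proteins went 3 ways. PEX11 (Y699_03932), a membrane protein of peroxisome division, had 302 reads in sucrose, 362 in xylan, 812 in cellulose and 1283 in straw, with ratios to sucrose of 2.68 in cellulose and 3.94 in straw (3.47 to 4.48), the latter just short of the limit and past it with TMM or DESeq2 factors. This gene lies 2 locus tags from AcuF. The peroxisomal membrane anchor gene Y699_02576 had 302, 342, 43 and 195 reads and was 7.03-fold lower in cellulose (5.10 to 9.92). PEX11 and the anchor gene were equal in reads in sucrose. Per kilobase PEX11 was 1.78 times as abundant as the anchor gene in sucrose, 33.7 times in cellulose and 11.7 times in straw. Copper amine oxidase (Y699_00588) had 66, 49, 622 and 135 reads and was 9.41-fold above sucrose in cellulose (7.29 to 12.3) but 1.90-fold in straw (1.40 to 2.59).

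Of 4 further genes for beta-oxidation or the peroxisome, 2 were higher in cellulose and 1 lower, and 2 were higher in straw. The enoyl-CoA hydratase/isomerase family gene Y699_09419 had 39 reads in sucrose, 36 in xylan, 971 in cellulose and 261 in straw. It was 24.9-fold above sucrose in cellulose (18.1 to 35.2) and 6.21-fold in straw. An acyl-CoA dehydrogenase (Y699_07896) had 3.57, 10.7, 26.4 and 25.4 RPM. 2-Hydroxyphytanoyl-CoA lyase (Y699_05560) was highest in xylan with 51.5, 115, 17.7 and 59.3 RPM, and the peroxisomal import receptor Peroxin-7 (Y699_09087) was highest in sucrose with 24.7, 8.94, 6.13 and 9.27 RPM.

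Mitochondrial import and maintenance genes went both ways, and the 4 most abundant are given here. The inner membrane translocase subunit TIM17 (Y699_03210) had 45.4 RPM in sucrose, 116 in xylan, 709 in cellulose and 1662 in straw. The co-chaperone GrpE (Y699_02569), which serves the import motor, had 118, 138, 227 and 553 RPM. The mitochondrial RNA polymerase (Y699_02313) had 174, 136, 532 and 265 RPM, and the sorting protein Msf1 (Y699_05973) had 57.1, 121, 422 and 182 RPM. Of the 12 genes in this list none passed in xylan. In cellulose 4 were higher and 1 lower, beside 14.3% and 9.54% over all genes tested. In straw 2 were higher and 1 lower, beside 10.3% and 9.65%. By the sign of the ratio alone, 9 lay above sucrose and 3 below in cellulose, and 8 above and 4 below in straw.

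The 3 transferred cultures were compared with each other because they shared wash, medium and duration. In cellulose against xylan, 5 of the 12 genes around the cycle were higher and none lower, 5 of the 7 respiratory genes were lower, and 3 of the 11 beta-oxidation and peroxisome genes were higher and 2 lower, beside 12.8% higher and 8.62% lower over all genes tested. Aconitase was 5.15-fold higher in cellulose than in xylan (5.04 to 5.27), homoaconitase 9.59-fold and enoyl-CoA hydratase Y699_05858 37.7-fold (17.1 to 104), and the 5 lower respiratory genes were the oxidase subunits. In straw against xylan, 4 genes around the cycle were higher, ATP9 was lower (6.76-fold, 6.41 to 7.14), and 2 beta-oxidation genes were higher, beside 6.36% higher and 6.53% lower over all genes. By library totals ATP9 did not pass the limit in cellulose against xylan (3.41-fold lower). With TMM or DESeq2 factors ATP9 did pass it there, giving 6 lower respiratory genes. The same factors gave 4 higher genes around the cycle in cellulose against xylan and 6 in straw against xylan. No oxidase subunit passed the limit in straw against xylan.

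By library totals cellulose and straw differed in 2 members. None of the genes around the cycle and none of the respiratory genes passed 4-fold between them, and 1 peroxisomal gene was higher and 1 lower in straw, beside 5.75% and 7.77% over all genes tested. These were the membrane anchor gene Y699_02576, 4.21-fold higher (3.02 to 6.01), and copper amine oxidase, 4.96-fold lower (4.11 to 6.02). Aconitase was level (1.01-fold, 0.993 to 1.02), all 5 oxidase subunits were higher in straw, by a log2 difference of 0.78 to 1.79, and ATP9 was 1.98-fold lower there.

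Within a library the balance of cycle enzymes and oxidase subunits can be read without any scaling. The 5 cycle enzymes summed to 2376 RPKM in sucrose, 1851 in xylan, 5273 in cellulose and 7938 in straw, and the 5 oxidase subunits to 5959, 5034, 883 and 1946 RPKM. The ratio of the former to the latter was 0.399 in sucrose, 0.368 in xylan, 5.97 in cellulose and 4.08 in straw. Sucrose and xylan thus lay on the side of these 5 oxidase subunits, and cellulose and straw on the side of these 5 cycle enzymes. Both sets hold only genes listed for varying over these libraries.

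**Figure D5:**
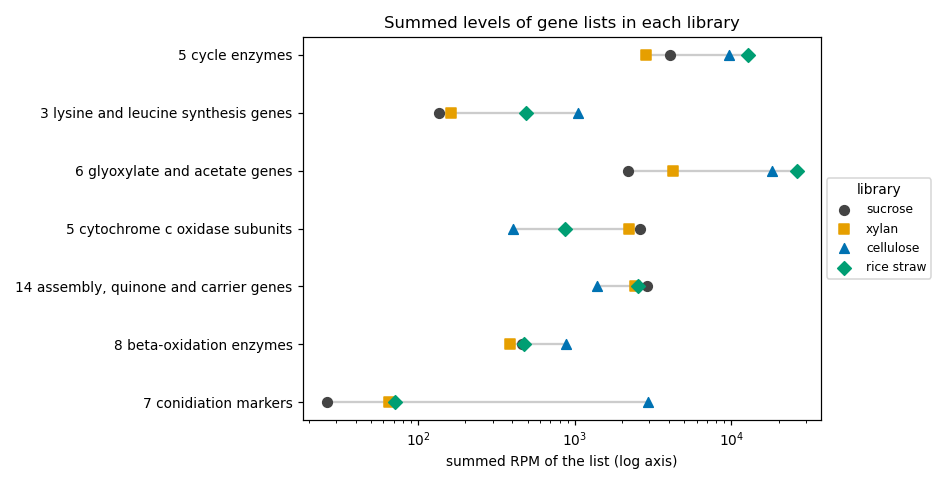
Summed RPM (log axis) of 7 gene lists in each library, 1 point per library. The cycle enzymes and the glyoxylate and acetate genes are highest in straw, the oxidase subunits are lowest in cellulose at 404 RPM, and the conidiation markers reach 2920.04 RPM in cellulose against 26.1 to 71.2 RPM elsewhere.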

How the data were processed

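The deposited table gives, for each of 9540 genes of strain Z5, the authors' read counts in 4 libraries of cap-selected cDNA. RPM in the deposited table is reads per library total and is not divided by gene length. Deposited lengths are all multiples of 3 and were taken as coding length. The authors' columns of log2 ratios, p-values and q-values from pairwise library comparisons (8 columns) were not used. Reads were mapped with Bowtie 0.12.2 per the submitters' processing notes. How strand and reads matching several genes were handled is not given in the sources used here.

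Reads were scaled by library totals. A member was counted past 4-fold with 10 RPM in either library, ratios carry exact (Clopper-Pearson) 95% intervals, and log2 ratios add 0.5 reads. No result rests on a test, with 1 library per carbon source and members chosen from these libraries. The members, gene lists and thresholds were chosen with earlier results of these data known. The study's methods ask for 10 RPM in all libraries of a varying gene, and 20 of the 30 members met this. All 30 members are named, with up to 4 genes of highest mean RPM from each other list. Cox11, the heme lyase Y699_03430, Ach1 and Y699_03262 lie outside this rule and were named after their values were seen. The other lists were compiled from the part used here of the study's table of varying genes. RefSeq (Af293, ASM265v1) matched 25 members and served for symbols only. Coordinates and sequences are not reported here.

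Alternatives were edgeR 4.0.16 TMM and DESeq2 1.42.0 size factors (R 4.3.3), totals without the most abundant 1% of genes, RPM filters, a 2-fold limit, 1 read added, and a further requirement of an exact binomial test of reads (q of at most 0.0001), which compares libraries and not conditions. Leaving out the cellulose library was chosen after seeing the data. Scripts were written in Python 3.11.15 with scipy 1.17.1, pandas 2.3.3, matplotlib 3.10.9 and numpy 2.4.6, and were tested on simulated data.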

Additional observations from a re-analysis of the deposited data

Results flagged for a closer look

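The peroxisomal dehydratase gene Y699_00039 was, by library totals, the member that lay at least 2-fold below sucrose in 1 substrate and at least 2-fold above it in the others. Its log2 ratios to sucrose in xylan, cellulose and rice straw were -1.08, 1.49 and 1.80, from 20, 125 and 167 reads against 44 in sucrose. Xylan and sucrose were both under 10 RPM for this gene (2.93 and 6.28 RPM), and its xylan ratio was -0.89 with TMM and -0.87 with DESeq2 factors, less than 2-fold below sucrose. The difference between substrates was not tested, and the 3 ratios share the sucrose library.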

How the results depend on the processing

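No paired analysis was possible because the design held 1 library per carbon source, so no replicate could be left out either. With TMM or DESeq2 factors, 4 beta-oxidation and peroxisome genes were higher than sucrose in rice straw (2 by library totals; PEX11 and the dehydratase Y699_00039 were added), 0 were lower (1 by totals, acyl-CoA dehydrogenase Y699_00837), and 1 gene around the cycle was lower (2 by totals, without Y699_02028). Totals without the most abundant 1% of genes also gave 0 lower beta-oxidation genes in rice straw, and a filter of 30 RPM gave 1 lower gene around the cycle there. At 2-fold, xylan had 2 higher and 2 lower genes around the cycle, 1 lower respiratory gene and 2 higher beta-oxidation genes. At 2-fold, cellulose had 9 higher and 2 lower genes around the cycle and 1 higher and 6 lower respiratory genes. The beta-oxidation and peroxisome genes in cellulose were 8 higher and 2 lower. Rice straw had 9 higher and 2 lower genes around the cycle and 6 lower respiratory genes at this limit. Its beta-oxidation and peroxisome genes were 5 higher and 1 lower. Over all genes tested, 10.7% were higher and 13.1% lower in xylan at 2-fold. These shares were 27.7% and 21.9% in cellulose, and 19.6% and 29.7% in rice straw, and nothing is read from the counts against them. Between straw and cellulose, TMM, DESeq2 or the trimmed totals gave 1 higher respiratory gene (0 by totals) and 2 higher beta-oxidation and peroxisome genes (1 by totals), and TMM or DESeq2 gave 0 lower (1 by totals). The 30 RPM filter gave 1 higher beta-oxidation gene between straw and xylan (2 at 10 RPM) and 0 between straw and cellulose (1 at 10 RPM). Removing the RPM filter left the counts of every group and comparison as they were or within 1.5 times. Adding the read test changed no count. It could not have done so, since a gene 4-fold apart with 10 RPM in 1 library has too many reads to fail it. No member past 4-fold against sucrose changed direction, and the scalings, with log2 shifts of at most 0.30, could not have made it do so. Genes under about 10 reads, such as Y699_05858 in sucrose, are limited by depth.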
